A study of Homo sapiens with 3 samples.

Results

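The NOTCH pathway was followed through 10 genes in the established human cell line Ishikawa, which derives from an endometrial adenocarcinoma: the receptors NOTCH1, NOTCH2 and NOTCH3, the ligands JAG1, JAG2 and DLL1, and the target genes HES1, HES4, HEY1 and NRARP. The genes were taken from the deposited table by name, as listed genes of the pathway, with no measured value in the rule. All 10 were found among its 35713 usable genes, and all 10 had a mean of at least 1 RPM (reads of a gene per 1000000 reads of the library) over the libraries, the limit for testing. RNA sequencing covered 3 libraries. In 2 of them, CLDN6 replicates 1 and 2, claudin-6, a tight junction protein, was overexpressed, which the labels call transient and which used a lentiviral vector packaged in HEK293T cells. The remaining library, WT, came from Ishikawa cells without treatment and has no replicate. Since no empty-vector library was among the samples, CLDN6 and the lentivirus that carried it cannot be told apart. The labels call the line Ishikawa, while the deposited column names carry ECC-1, another endometrial line name. Which line was sequenced was not tested. The labels do not say whether the replicates were separate cultures, so the p-values rest on a spread between libraries that may be purely technical.

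NOTCH receptors are single-pass membrane proteins that are activated by DSL ligands of the Jagged and Delta-like families on a neighbouring cell. Ligand binding exposes the receptor to cleavage by an ADAM protease and then by gamma-secretase, and the freed intracellular domain joins the DNA-binding protein RBPJ and a Mastermind coactivator to switch on genes such as those of the HES and HEY repressors. In Müllerian and airway epithelia, NOTCH activity is known to hold cells back from the ciliated fate and to favour the secretory one.

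The libraries held between 65755118 and 71088869 reads, as read from the step that 1 read makes in the deposited values. CLDN6 was at 354, 413 and 0.236 RPM in CLDN6 replicate 1, CLDN6 replicate 2 and WT, the order used for every triplet of values below. The epithelial identity of the line was visible in all 6 epithelial markers (EPCAM, CDH1, KRT8, KRT18, KRT19 and PAX8), whose summed level was 6228, 6481 and 6135 RPM. Defining markers of other cell types were at or near 0: PECAM1, CD3E, PDGFRB, DCN and LUM had 0 reads in every library, which allows up to 0.0422, 0.0456 and 0.0442 RPM (3 reads, counting error only), and PTPRC had 2, 1 and 4 reads. Of the 5 endothelial, 5 leukocyte, 6 stromal and 3 smooth muscle markers, 1, 1, 1 and 2 reached the limit for testing, and their summed levels ranged over the libraries from 10.1 to 16.4, 0.872 to 1.28, 17.2 to 49.5 and 17.1 to 77.6 RPM. The last 2 ranges were set mainly by COL1A1 at 16.3, 48.6 and 20.8 RPM and the smooth muscle actin gene ACTA2 at 12.2, 73.2 and 18.7 RPM, both highest in CLDN6 replicate 2. The part of these genes in the results below was not tested. The CLDN6 libraries also stood apart from each other over the whole table, so values are given for each of them and not only for the pair. ESR1, the estrogen receptor gene, was at 99.8, 17.2 and 71.7 RPM.

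None of the 10 NOTCH genes passed the test of the CLDN6 pair against WT, which at this spread does not show that they did not differ. Of 14509 genes tested, 0.00689% passed (CLDN6 alone; limma, Benjamini-Hochberg), and of the 10 NOTCH genes 0 passed, with 0 at an unadjusted p under 0.05 by limma and 0 by limma-voom on recovered reads. The lowest unadjusted p of a member was 0.457, for NOTCH1, and adjusted p = 0.99996 for each of the 10 (limma). Standard errors of the log2 change ran from 0.93 to 1.24 and rest on the spread of the CLDN6 pair, pooled over genes of like level. With 2 libraries against 1, an exact permutation test cannot give a one-sided p under 0.333. These are bulk samples, in which fewer cells of a type and less RNA per cell cannot be told apart.

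Among the receptors, NOTCH1 lay below WT in both CLDN6 libraries, while NOTCH2 and NOTCH3 lay above WT in replicate 1 and below it in replicate 2. NOTCH1, the receptor best known from T-cell leukaemia, is encoded on chromosome 9 from 136494444 to 136545862, minus strand (GRCh38, ENSG00000148400). NOTCH1 was read at 73.2, 52.6 and 102 RPM, from 5201, 3459 and 6942 reads. The highest value was that of WT and the groups did not overlap. As a ratio to WT, NOTCH1 stood at 0.715 in replicate 1 (95% exact binomial interval 0.690 to 0.741) and at 0.514 in replicate 2 (0.493 to 0.536). These intervals, like all those below, cover counting error only, and the lone WT library carries no estimate of the spread between cultures. The log2 change of NOTCH1, taken on log2(RPM + 1) and therefore too small for genes of low level, was -0.71 ± 0.96 (SE).

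NOTCH2 lies on chromosome 1 from 119911553 to 120069626, minus strand (ENSG00000134250). Its level was 205, 82.6 and 164 RPM from 14594, 5431 and 11111 reads, and WT lay between the CLDN6 libraries, whose mean was 144 ± 86.8 RPM (SD, n = 2). NOTCH2 has partial copies of nearly the same sequence in the genome, so its reads are uncertain where counting could split them. The row of the copy NOTCH2NL was read at 34.5, 20.6 and 32.3 RPM, in the same order of libraries as NOTCH2, and NOTCH2 had 5.95, 4.01 and 5.06 reads for each read of it.

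NOTCH3, a receptor known from vascular smooth muscle and from epithelial cancers, lies on chromosome 19 from 15159038 to 15200981, minus strand (ENSG00000074181). NOTCH3 was read at 176, 57.2 and 136 RPM, and WT again lay between the CLDN6 libraries. Of the receptors NOTCH3 had the widest gap between the CLDN6 libraries, 3.07-fold with an interval of 2.96 to 3.19, against 2.49-fold for NOTCH2 and 1.39-fold for NOTCH1. The ratio of NOTCH3 to WT was 1.29 in replicate 1 and 0.421 in replicate 2. NOTCH4, the endothelial receptor, had 34, 24 and 14 reads and did not reach the limit for testing.

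Shares within a library do not depend on the scaling to depth. NOTCH1 made up 16.1% of the reads of the 3 receptors in replicate 1 (95% Wilson interval 15.7 to 16.5), 27.3% in replicate 2 (26.6 to 28.1) and 25.5% in WT (25.0 to 26.0). The share of NOTCH1 was thus lowest in replicate 1 and near WT in replicate 2, so its low level in both CLDN6 libraries was not matched by a low share in both. NOTCH3 took 38.7%, 29.7% and 33.8% of these reads, with WT between the CLDN6 libraries. The share of NOTCH2 was 45.2%, 42.9% and 40.8%, higher than WT in both, with the uncertainty from its copies named above.

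The ligands differed from one another in how their balance stood against WT. JAG1 encodes Jagged 1, mutated in Alagille syndrome, and lies on chromosome 20 from 10637684 to 10674107, minus strand (ENSG00000101384). JAG1 was read at 220, 67.6 and 108 RPM from 15607, 4448 and 7307 reads. Replicate 1 stood 2.04-fold above WT (interval 1.98 to 2.10) and replicate 2 at 0.628 of WT (0.605 to 0.652), so WT lay between them. At 3.25-fold, with an interval of 3.14 to 3.36, JAG1 had a gap between the CLDN6 libraries close to that of NOTCH3, whose interval overlaps. Its log2 change of the pair from WT was 0.18 ± 0.93 (SE), and without replicate 1 it was -0.66.

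JAG2 encodes Jagged 2 and lies on chromosome 14 from 105140981 to 105168824, minus strand (ENSG00000184916). Its level was 161, 67.8 and 143 RPM, with WT between the CLDN6 libraries and closer to replicate 1. In GENCODE 29 its exons share 469 bases with AL512356.1 on the same strand, which was read from 1044, 511 and 972 reads, so reads of that stretch are uncertain. The exons of JAG1 share 79 bases with an antisense gene, AL050403.2, of 82, 16 and 41 reads.

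JAG1 made up 57.4% of the reads of the 3 ligands in replicate 1 (56.8 to 58.0), 49.8% in replicate 2 (48.8 to 50.8) and 42.8% in WT (42.0 to 43.5). JAG2 made up 42.0%, 49.9% and 56.8%. Per base of the longest transcript, JAG1 stood at 1.34, 0.979 and 0.740 of JAG2. The ratio of JAG1 to JAG2 was thus above WT in both CLDN6 libraries, by log2 differences of 0.85 and 0.40, and this comparison was picked after the values were seen. The difference was 0.45 in replicate 1 and 0.57 in replicate 2 once a trend with GC content, length and level had been removed. As it was picked from these values, it was not tested. JAG1 and JAG2 differ in GC content, at 49.6% and 64.0% of the longest transcript.

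DLL1 encodes Delta-like 1 and lies on chromosome 6 from 170282206 to 170290473, minus strand (ENSG00000198719). It was a minor ligand gene by reads, at 2.50, 0.350 and 0.988 RPM from 178, 23 and 67 reads, with WT between the CLDN6 libraries. The CLDN6 libraries stood 7.16-fold apart, and the low counts give this ratio a wide interval of 4.62 to 11.6. The log2 change of DLL1 from WT was 0.13 ± 1.04 (SE), and its sign turned with a pseudocount of 0.1 (-0.0071) and with limma-voom (-0.0350). Its span overlaps that of FAM120B on the opposite strand without shared exon bases, and FAM120B was read from 2296, 421 and 1404 reads. The part of FAM120B reads in the DLL1 row was not tested. DLL3 and DLL4, the remaining canonical Delta-like genes, had 61, 51 and 37 reads and 28, 33 and 33 reads, DLK2 had 60, 53 and 35 reads, and DLK1 had 0 in each library.

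The target genes are where RBPJ is known to act on DNA, and their promoters are shown for that reason. Promoters from RefSeq (GRCh38.p14, 250 bases before to 50 bases after the start) were matched for 8 of the 10 members, all but DLL1 and HEY1. Each was searched for TGGGAA, the core of the RBPJ site, on both strands, and for the longer GTGGGAA, which contains it. TGGGAA was found in the promoters of HES1 and HES4 and in none of the other 6, while 24.0% of all 35116 promoters held it. The longer form was in the same pair of promoters and in 6.25% of all. A match is a description of letters and not a site, and no match says only that the letters are not in this window. HES1 held TGGGAA at 84 and 70 bases before the RefSeq start, both on the gene's strand, and 3.80% of all promoters held it at least 2 times. The 247 bases before the HES1 start in the deposited table, chr3:194135898-194136144 on the plus strand, are given with TGGGAA in capitals.
HES1 promoter: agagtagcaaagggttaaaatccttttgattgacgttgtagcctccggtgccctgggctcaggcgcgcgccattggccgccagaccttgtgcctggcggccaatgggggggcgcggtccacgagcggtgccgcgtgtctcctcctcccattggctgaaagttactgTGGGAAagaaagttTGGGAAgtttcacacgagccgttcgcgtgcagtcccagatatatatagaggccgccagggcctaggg

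To compare HES1 with relatives that hold TGGGAA on the gene's strand, 30 bases are given for each of 4 genes. Each window starts 5 bases before the first TGGGAA on that strand. The genes were picked for holding it, so the windows do not stand for the whole family. The promoters of HES2, HES6 and HES7 held no TGGGAA, and that of HES3 held it only on the opposite strand. The HES5 and HEYL windows come from genes outside the 10 members. HEY2 held TGGGAA on its strand too, 3 bases before the RefSeq start, where 30 bases would run past that start, and is not shown. The windows are placed by the RefSeq start alone. The HES4 window crosses the start of HES4 in the deposited table, given below. Most of its bases, and most of its TGGGAA, lie within the span of the gene there. The windows begin 89, 81, 85 and 104 bases before the RefSeq start in HES1 (chr3:194136059-194136088, plus strand), HES4 (chr1:1000149-1000178, minus strand), HES5 (chr1:2530319-2530348, minus strand) and HEYL (chr1:39639718-39639747, minus strand), with TGGGAA in capitals.
HES1: tactgTGGGAAagaaagttTGGGAAgtttc
HES4: gagtgTGGGAAagaatgcggagccgggttc
HES5: gagtgTGGGAAcggccgcggcgcccggact
HEYL: ggcccTGGGAAagggcggtggcggcgcccc
GTGGGAA is present in these windows of HES1, HES4 and HES5 and not in that of HEYL. The levels of these genes lay far apart: HES5 had 0, 1 and 1 reads, HEYL was read at 10.9, 2.62 and 8.12 RPM, and those of HES1 and HES4 follow.

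HES1 encodes a bHLH repressor that is the most studied direct NOTCH target, and lies on chromosome 3 from 194136145 to 194138732, plus strand (ENSG00000114315). HES1 was read at 60.2, 34.6 and 68.8 RPM from 4281, 2277 and 4665 reads. WT was highest, and HES1, like NOTCH1, lay below WT in both CLDN6 libraries. The ratio to WT was 0.876 in replicate 1 (0.840 to 0.913) and 0.504 in replicate 2 (0.479 to 0.530), a log2 change of the pair of -0.58 ± 0.99 (SE). In each CLDN6 library HES1 and NOTCH1 stayed below WT also under the TMM-like, RLE and quantile scalings. With the trend of GC content, length and level removed, HES1 lay at -0.05 against WT in replicate 1 and at -1.15 in replicate 2.

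HES4, a relative of HES1 that mice lack, lies on chromosome 1 from 998962 to 1000172, minus strand (ENSG00000188290). Its level was 3.26, 3.25 and 2.92 RPM from 232, 214 and 198 reads. The CLDN6 libraries were nearly equal, at a ratio of 1.003 with an interval of 0.829 to 1.21, and both lay above WT by ratios of 1.12, with intervals of 0.921 to 1.36 and 0.915 to 1.36. The difference of HES4 from WT is thus within counting error, and its direction was not the same under every scaling: HES4 lay above WT in both libraries with the deposited scaling and not with the TMM-like, RLE and quantile ones. HES4 was the most GC-rich member, at 73.9% of its longest transcript.

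HEY1 encodes a HES-related repressor known from blood vessels and bone, and lies on chromosome 8 from 79764010 to 79767863, minus strand (ENSG00000164683). HEY1 was read at 1.63, 0.502 and 1.15 RPM from 116, 33 and 78 reads, with WT between the CLDN6 libraries. NRARP encodes a short ankyrin repeat protein that feeds back on the NOTCH complex, and lies on chromosome 9 from 137300482 to 137302251, minus strand (ENSG00000198435). NRARP was read at 6.33, 2.22 and 5.20 RPM from 450, 146 and 353 reads, also with WT between. The CLDN6 libraries differed 3.25-fold in HEY1 (2.19 to 4.94) and 2.85-fold in NRARP (2.36 to 3.46), against 1.74-fold in HES1 and almost none in HES4, so the 4 targets did not share a pattern.

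Levels of different genes were compared per base of the longest transcript (RPKM). HES1 was highest in each library, at 38.2, 21.9 and 43.6 RPKM. JAG1 was at 37.0, 11.4 and 18.1, JAG2 at 27.5, 11.6 and 24.5, NOTCH3 at 20.3, 6.60 and 15.7, NOTCH2 at 18.0, 7.25 and 14.4, and NOTCH1 at 7.86, 5.65 and 11.0 RPKM. Within each library NOTCH1 was lowest of these 6 genes, while JAG1 and JAG2, and NOTCH2 and NOTCH3, changed order between libraries. Among the 6, the ranges of the CLDN6 pair overlap between neighbours in this order. The ranges of that pair do not overlap between NOTCH1 and the next genes, NRARP at 3.58, 1.25 and 2.94 RPKM and HES4 at 3.14, 3.13 and 2.81 RPKM, whose ranges overlap. HEY1 at 0.711, 0.219 and 0.501 and DLL1 at 0.789, 0.110 and 0.311 RPKM came last and overlap as well.

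In 8 of the 10 members, all but NOTCH1 and HES4, the gap within the CLDN6 pair was wider than the change of the pair from WT. In both CLDN6 libraries, 0 of 10 stood 2-fold or more above WT and 0 of 10 stood 2-fold or more below it, where 0.0345% and 0.193% of all genes did (0.227% in either direction). For 7 of 10 members WT fell between the CLDN6 libraries, near the 75.9% of all genes. NOTCH1 and HES1, 2 of 10, had both CLDN6 libraries below WT, as did 15.1% of all genes, and HES4, 1 of 10, had both above, as did 9.06%. With these values the shares are near the background, but they move with the scaling. JAG2 and NRARP joined NOTCH1 and HES1 below WT with the TMM-like and the RLE scaling (4 of 10). NRARP joined them with quantile normalization (3 of 10) and HEY1 with the trend removed (3 of 10). The share of all genes below WT under these alternatives is not given, so these counts are not read as a shift of the members. WT lay between the CLDN6 libraries in 6, 6, 7 and 6 of 10 members with TMM-like, RLE and quantile scaling and the trend removed. In that order, it did so in 75.2%, 75.2%, 71.6% and 60.5% of all genes. Replicate 1 lay above WT in 8 of 10 (62.9% of all genes), and replicate 2 lay below WT in 9 of 10 (68.9% of all genes). Without replicate 1, JAG2 and NOTCH3 were at least 2-fold below WT, as were 18.4% of all genes, and without replicate 2, JAG1 was at least 2-fold above WT, as were 6.69%.

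The members were higher in replicate 1 than in replicate 2 in 10 of 10 cases, HES4 by a negligible margin. More genes than not were higher in replicate 1 over the whole table too, with a median gap of 0.56 log2 units. The exact share of all genes is not given, so the 10 of 10 has no background and cannot be read as a trait of the members. At least 2-fold higher were 6 of 10 (DLL1, JAG1, JAG2, NOTCH2, NOTCH3 and NRARP), where 36.2% of all genes were, and at least 2-fold lower were 0 of 10, where 7.15% were. Both directions together came to 6 of 10, beside 43.4% of all genes. The median gap was 1.21 log2 units, beside 0.56 over all genes tested. This gap depends on scaling: only DLL1 was at least 2-fold apart with the TMM-like and with the RLE scaling, which bring the all-gene median from 0.56 to -0.04 and -0.11, and replicate 1 was then below replicate 2 in NOTCH1 (-0.22 and -0.31) and in HES4 (-0.54 and -0.60). HES4 was also lower in replicate 1 with quantile normalization (-0.86). The median of the members stayed above that of all genes, at 0.57 and 0.48.

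**Figure D1:**
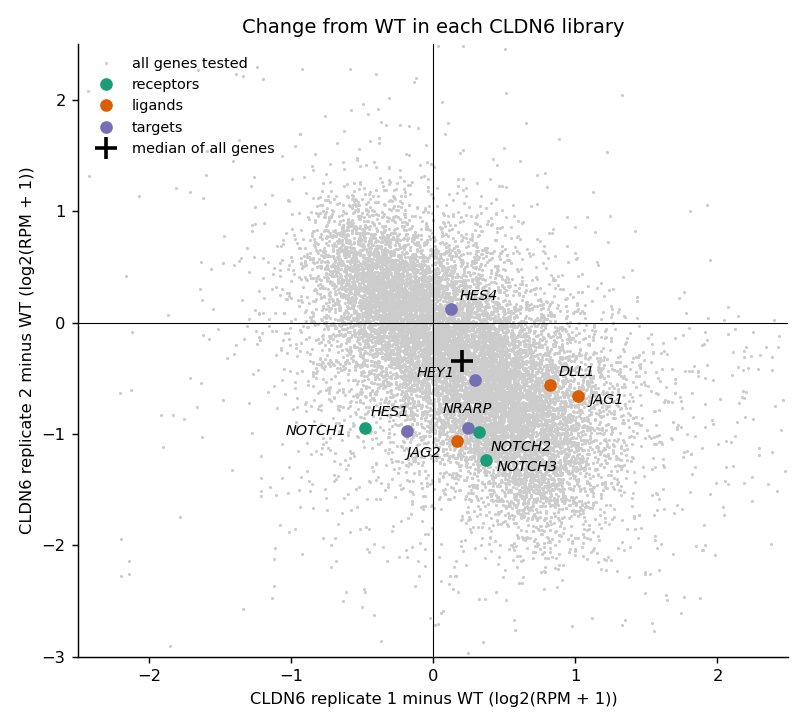
Change from WT in CLDN6 replicate 1 (horizontal axis) and CLDN6 replicate 2 (vertical axis), both as differences of log2(RPM + 1), for 14509 genes (grey; 47 lie outside the axes) and the NOTCH receptors, ligands and targets (coloured). The cross marks the median of all genes at 0.20 and -0.35, and 7 of the 10 members lie above WT in replicate 1 and below it in replicate 2.

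Relative to the all-gene medians of 0.20 in replicate 1 and -0.35 in replicate 2, the median of the 10 members was 0.06 and -0.60. NOTCH1 lay at -0.68 and -0.60, with nearly the same distance below the other genes in both CLDN6 libraries. HES1 lay at -0.39 and -0.62. JAG1 stood highest in replicate 1, at 0.82, and NOTCH3 lowest in replicate 2, at -0.89.

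The gap between the CLDN6 libraries moved with GC content over all genes, with a median of 1.62 log2 units in the decile of lowest GC content and -0.33 in the highest. NOTCH1, NOTCH3, JAG2, HES4 and NRARP lie in the decile of highest GC content, and their gaps of 0.47, 1.60, 1.23, 0.00 and 1.19 were all above the median of that decile. All 10 members lay above the median of their own GC decile, by 0.18 (HEY1) to 1.93 (NOTCH3). With the trend of GC content, length and level removed, 6 members were still at least 2-fold higher in replicate 1, with HES1 in place of NOTCH2.

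The rest of the pathway was read from lists of 67 genes, of which 51 reached the limit for testing and 0 passed the test by limma with Benjamini-Hochberg adjustment. None had an unadjusted p under 0.05 by limma (0) or limma-voom (0). At least 2-fold higher in replicate 1 than in replicate 2 were 24 of the 51, and 1 was at least 2-fold lower, beside 36.2% and 7.15% of all genes. These counts move with the scaling, under alternatives added after the data were seen. They were 16 and 8 with the TMM-like scaling, 15 and 8 with RLE, 14 and 7 with quantile normalization, and 7 and 1 with the trend removed. The 2-fold shares of all genes, here and for the lists below, are those of the deposited scaling. The alternatives bring the all-gene median gap from 0.56 to between -0.11 and -0.01. All-gene 2-fold shares under them are not given, so counts under them have no background. The nuclear complex had a median gap of 1.52 log2 units, with 7 of 8 genes at least 2-fold higher in replicate 1 and WT between the CLDN6 libraries in 8 of 8. The median gap of the nuclear complex stayed above 0 under the TMM-like (0.99), RLE (0.92) and quantile (1.32) scalings and with the trend removed (0.84). In that order, 4, 4, 5 and 1 of its genes were at least 2-fold higher. RBPJ, the DNA-binding partner of all NOTCH receptors, was read at 49.2, 10.2 and 35.6 RPM. The Mastermind coactivator MAML2 was at 24.9, 3.50 and 11.7 RPM and MAML1 at 51.7, 35.1 and 45.0 RPM. The acetyltransferases EP300 and CREBBP were at 101, 35.9 and 88.8 RPM and at 111, 38.4 and 85.5 RPM. RBPJ is GC-poor, at 38.0%, and with the trend removed it lay at -0.18 in replicate 1 and -0.78 in replicate 2 against WT. RBPJ, MAML2 and EP300 were each below WT in replicate 2, as were 68.9% of all genes.

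Of the 9 cleavage genes, 3 were at least 2-fold higher and 1 at least 2-fold lower in replicate 1 than in replicate 2, beside 36.2% and 7.15% of all genes. The balance turned to 2 higher and 4 lower with the TMM-like and the RLE scaling, and was 2 and 1 with quantile normalization and 0 and 1 with the trend removed. The ectodomain proteases and parts of gamma-secretase lay on opposite sides of WT in each CLDN6 library, also under the TMM-like, RLE and quantile scalings: ADAM10 was read at 195, 45.3 and 115 RPM and ADAM17 at 54.2, 15.0 and 36.2 RPM, while the gamma-secretase subunit genes APH1A and PSENEN were at 185, 335 and 248 RPM and at 32.8, 49.9 and 38.7 RPM. PSEN2, which encodes a catalytic subunit, was at 6.51, 15.7 and 9.57 RPM, on the same sides of WT as APH1A and PSENEN. Nicastrin (NCSTN) was nearly level, at 125, 120 and 141 RPM. ADAM10 and ADAM17 are GC-poor, at 38.3% and 38.5%, and with the trend removed ADAM10 lay at 0.19 and -0.32 and ADAM17 at -0.05 and -0.27 against WT. In the rows of ADAM10, ADAM17, NCSTN, APH1A and PSENEN, exon bases are shared with other genes and the reads are uncertain.

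Among the enzymes that add sugars to NOTCH, the fucosyltransferase POFUT1 was read at 123, 110 and 126 RPM and the Fringe gene LFNG at 22.8, 23.6 and 21.4 RPM, both with small differences between libraries. POGLUT1, a glucosyltransferase, was at 12.5, 3.41 and 6.71 RPM and RFNG at 21.1, 24.2 and 31.2 RPM. RFNG shares exon bases with GPS1 and is uncertain. Of 4 genes tested in this list, 1 was at least 2-fold higher in replicate 1, also with the TMM-like scaling, and 0 were with RLE, quantile normalization or the trend removed.

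Of the 10 genes tested for trafficking and turnover, 5 were at least 2-fold higher and 0 lower in replicate 1, beside 36.2% and 7.15% of all genes. With the TMM-like and the RLE scaling they were 3 and 2, with quantile normalization 3 and 3, and with the trend removed 1 and 0. NEURL1B, a ubiquitin ligase of the Neuralized family that acts on ligands, was at 78.4, 11.6 and 74.8 RPM, close to WT in replicate 1 and far below it in replicate 2. Its exons share 383 bases with the antisense gene AC027309.1, of 507, 64 and 463 reads. MIB1, the Mind bomb ligase that ligands need for signaling, was at 73.3, 14.5 and 43.5 RPM. FBXW7, which marks the NOTCH intracellular domain for destruction, was at 18.3, 3.48 and 8.92 RPM, and the NOTCH antagonist NUMB at 47.8, 21.1 and 38.2 RPM. The Deltex gene DTX2 was at 9.04, 15.6 and 15.3 RPM, lowest in replicate 1.

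The corepressors, which hold NOTCH targets off in the absence of signal, lay below WT in both CLDN6 libraries in 4 of 8 cases. With the same deposited scaling, 15.1% of all genes did. The cases were 6 with the TMM-like and the RLE scaling, 5 with quantile normalization and 4 with the trend removed. No all-gene share is given for these, so they have no background and are not read as a trait of the corepressors. Among the corepressors below WT in both, HDAC1 was at 125, 91.7 and 153 RPM, TLE2 at 12.4, 11.7 and 20.5 RPM, and TLE3 at 23.9, 13.8 and 25.2 RPM. SPEN and NCOR1 had WT between the CLDN6 libraries, at 95.7, 24.5 and 71.5 RPM and at 116, 24.0 and 86.7 RPM. SPEN and NCOR1 share exon bases with other genes and are uncertain. Of the other HES and HEY genes, HES2 was highest in replicate 2, at 41.9, 81.6 and 76.5 RPM, against the order of the members, HES6 was at 39.0, 32.2 and 43.5 RPM, and HES3 and HES7 had between 0 and 1 read in each library.

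The ciliated program, which NOTCH is known to restrain, had wider gaps in some genes than the members. FOXJ1, the master regulator of motile cilia, stood at 246, 11.1 and 66.1 RPM and RFX3 at 18.3, 1.45 and 6.29 RPM, both in the same order of libraries as JAG1 and NOTCH3, while E2F4 was at 36.3, 66.9 and 46.9 RPM. The p53 relative TP73 was at 9.31, 2.59 and 4.78 RPM, and of 9 genes tested in this list 5 were at least 2-fold higher in replicate 1 and 0 lower, beside 36.2% and 7.15% of all genes. These counts were 3 and 1 with the TMM-like and the RLE scaling, 2 and 2 with quantile normalization, and 2 and 0 with the trend removed. FOXJ1 shares 9 exon bases with RNF157-AS1 and TP73 shares 633 with TP73-AS1, so both are uncertain. With the deposited scaling, FOXJ1 was above WT in replicate 1 and below it in replicate 2, while HES1 and NOTCH1 were below WT in both. Each of these genes was lower in replicate 2 than in replicate 1. With the trend removed, HES1 lay only -0.05 from WT in replicate 1. Whether the NOTCH genes and the ciliated program are related was not tested.

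Genes closest in pattern were found by the distance between their changes from WT in the CLDN6 libraries (3 libraries in all, log2(RPM + 1)), among the 10538 protein-coding genes whose mean reached 5 RPM. Nearest to NOTCH1 were SLC22A18, GLIS2 and TMEM129, at distances of 0.026, 0.050 and 0.056. Nearest to JAG1 were ASAP2, CYBRD1 and FHDC1, at 0.016, 0.020 and 0.023. Among the genes nearest to HES1 were SEZ6L2 and ADAMTS1, at 0.0050 and 0.032. Within a distance of 0.1 lay 9 genes for NOTCH1, 35 for JAG1 and 16 for HES1, so with 3 libraries many genes share a pattern.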

How the data were processed

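RNA was sequenced in 3 Ishikawa libraries, 2 with CLDN6 and 1 WT. The authors deposited 1 table of log2 values per gene on GRCh38 (build per the submitters' processing notes); aligner, counter, annotation and use of strand: not given in the sources used here. Columns were matched to samples by CLDN6 1, CLDN6 2 and WT in their names. ECC-1, another endometrial line name, precedes these in each column name and is in no label. The name Ishikawa thus rests on the labels. With the deposited log2 values made linear, 99.9323% to 99.9826% of values above the lowest were whole multiples of 1 step (tolerance 0.05 of a read), which gave reads and RPM. The lowest value, 0.9 of a step, was taken as 0 reads. Of 35805 rows, 92 with no ID, or with a shared ID and no reads, were left out, and 28 date-like names were replaced by the symbol of their ID. The members and lists were chosen with earlier results of these data known.

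The 14509 genes that averaged at least 1 RPM were compared on log2(RPM + 1) by limma 3.58.1 (R 4.3.3, variance trend on the mean), two-sided, Benjamini-Hochberg over all genes, threshold 0.05, with 1 residual degree of freedom and the WT library assumed to vary like the CLDN6 pair. The script was tested on simulated data. The design named a count test for counts; since the values are log2, the test for normalized values was used. GC content and length are those of the longest GENCODE 29 transcript. Coordinates are those of the table. Named were all 10 members, genes of the lists with a mean of at least 5 RPM (others by their reads), CLDN6, ESR1 and the 3 genes nearest to NOTCH1, JAG1 and HES1. Values of some genes of these lists are not reported here. Alternatives were a pseudocount of 0.1, no filter, a 5 RPM filter, TMM-like, RLE and quantile scaling, limma-voom, removal of a spline trend (5 degrees of freedom) with GC content, length and level, protein-coding genes alone, and each CLDN6 replicate left out.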

Additional observations from a re-analysis of the deposited data

How the results depend on the processing

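For the members, 84 of 86 log2 changes kept their direction under the 9 alternatives with a test and 0 passed it (lowest adjusted p = 0.999939, limma). Leaving out the filter, the 5 RPM filter and protein-coding genes alone change only which genes enter the fit. A member's log2 change cannot move under these, so its agreement there was fixed in advance and says nothing about robustness. DLL1 turned to -0.0071 with a pseudocount of 0.1 and to -0.0350 with limma-voom; the cause was not tested. With 1 CLDN6 replicate left out there is no test, and the changes ranged from -0.98 to 0.32 for NOTCH2, -1.23 to 0.37 for NOTCH3, -0.66 to 1.02 for JAG1, -1.06 to 0.17 for JAG2, -0.56 to 0.82 for DLL1, -0.52 to 0.29 for HEY1 and -0.95 to 0.24 for NRARP, while NOTCH1, HES1 and HES4 kept their direction. The members at least 2-fold from WT then numbered 1 to 2 in place of 0. With the TMM-like scaling 1 member, and with RLE 1, differed 2-fold or more within the CLDN6 pair, in place of 6. Over all genes, 0 passed without a filter, with 146 at an unadjusted p under 0.05, and 0 with limma-voom, with 8, in place of 1. The 2-fold counts were not run with limma-voom, and the gap between the CLDN6 libraries has no value with 1 of them left out. No paired analysis was possible because WT is a single library without a replicate number. HEY1 (33 to 116 reads) and DLL1 (23 to 178 reads) have the fewest reads of the members and the widest counting intervals.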

Other observations

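Of the wider lists, 2 genes below the limit for testing, named here after their values were seen, had opposite orders over the libraries. The Fringe gene MFNG had 8 reads in CLDN6 replicate 1, 49 in CLDN6 replicate 2 and 27 in WT. FOXN4, a transcription factor of multiciliated cells, had 79, 0 and 14 reads, in the order of FOXJ1. MCIDAS, the multicilin gene that starts the multiciliated program, passed the limit for testing at 1.62, 0.745 and 0.840 RPM (115, 49 and 57 reads), and GMNC, which acts above it, had 0 reads in each library.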
